A study of Mus musculus with 16 samples.

Results

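The genes described here encode the enzymes of glycolysis from aldolase to pyruvate kinase, on either side of phosphoglycerate mutase, the step removed in Adipo-Pgam1 KO mice. They were chosen by name, though with earlier results of these data known. They are 9 of the 22911 genes that could be named on the array, and 19 of the 32994 named probes belong to them. Aldoa, Aldoc, Tpi1, Gapdh and Pgk1 act before phosphoglycerate mutase, and Eno1, Eno2, Eno3 and Pkm act after it. All 9 genes had a probe well above background on every array of at least 1 group in each comparison, so all of them were tested throughout. Each gene is represented by its brightest probe, and its other probes are given as a check.

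In glycolysis, aldolase splits fructose bisphosphate into a pair of triose phosphates, which triosephosphate isomerase (Tpi1) interconverts. Glyceraldehyde phosphate dehydrogenase (Gapdh) and phosphoglycerate kinase (Pgk1) then carry the carbon to 3-phosphoglycerate, making NADH and ATP, and 3-phosphoglycerate is both the substrate of phosphoglycerate mutase and the starting point of serine synthesis. Enolase and pyruvate kinase lie below that step and release pyruvate and more ATP. Aldolase and enolase exist as isoforms, of which Aldoa and Eno1 are the widely expressed ones. Aldoc is best known from the brain, Eno2 from neurons and Eno3 from skeletal muscle. Pkm gives rise to both the M1 and M2 forms of pyruvate kinase by alternative splicing, which the probes used here were not resolved into. In brown adipose tissue (BAT), which burns fuel for heat, glycolysis feeds both mitochondrial oxidation and lipid synthesis.

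The study compared gene expression in interscapular BAT and in gonadal white adipose tissue (gWAT) of male C57BL/6NCrSlc mice on 1-colour Agilent arrays, with 4 arrays for each tissue and genotype and 16 arrays in all. Adipo-Pgam1 KO mice carried floxed Pgam1 and the Adipoq-Cre transgene, whose adiponectin promoter drives Cre in adipocytes, whereas littermate controls, labelled wild-type, carried Pgam1 flox/flox alleles without Cre. Mice were 16 weeks old, except that replicate 4 of the KO mice in both tissues was 14 weeks old. RNA came from whole tissue, so cells other than adipocytes, in which Cre is not made, contributed to every array. In bulk tissue of this kind, fewer cells of a type and less RNA per cell cannot be told apart. The labels name no animal behind an array, and p-values measure the spread between these arrays.

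Levels are given as the log2 of the background-subtracted signal over the array's 75th percentile, so that a level of 0 is a probe as bright as that percentile. The 75th percentile itself was 401 to 451 in BAT control arrays and 650 to 916 in BAT KO arrays, a difference of 0.94 on the log2 scale, against 0.10 in gWAT. No array had more than 62.2% of its probes well above background, and no spot of a gene was saturated. The arrays lay on 3 slides: 3 BAT controls on slide 1, then 1 BAT control with the 4 BAT KO arrays and 3 gWAT controls on slide 2, then 1 gWAT control with the 4 gWAT arrays labelled Adipo-Pgam1 KO on slide 3, which was scanned on another day. Pgam1, the targeted gene, fell by 1.74 on the log2 scale in BAT of Adipo-Pgam1 KO mice, with a level of 7.94 ± 0.11 (SD, n = 4) in controls and 6.20 ± 0.17 (SD, n = 4) in KO mice. In gWAT the arrays labelled Adipo-Pgam1 KO had the higher level, at 6.31 ± 0.25 (SD, n = 4) against 5.36 ± 0.29 (SD, n = 4) in controls. A second Pgam1 probe differed by -1.65 in BAT and by 1.02 in gWAT, and neither probe had overlapping groups in either tissue. The floxed exons are not named in the sources used here, and why the same probes were lower in BAT and higher in gWAT was not tested. Every gWAT direction below is given by the label of the arrays. The 7 brown adipocyte markers checked were all well above background on all BAT arrays, and their summed level was 3260 to 3480 in BAT controls against 12.6 to 23.4 in gWAT controls.

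RefSeq (GRCm38.p6) lists 15 promoter windows for the 9 genes, each holding 250 bases before and 50 bases after a start site. They were searched on both strands for ACGTG and GCGTG, the core letters of sites bound by hypoxia-inducible factors, which are known regulators of many glycolytic genes. ACGTG was found in 6 of the 15 windows, in 5 of the 9 genes, against 19.6% of all 32841 windows of this length. GCGTG was found in 7 of the 15 windows, in 4 genes, against 32.4% of all windows. Windows of a gene can overlap, so some sites count in more than 1 window. A pair of Aldoa windows shares its ACGTG site, and a pair of Eno1 windows shares its GCGTG sites. Whether overlaps are as common among all windows was not tested. The 4 windows printed here belong to genes that recur below and were picked with the levels known. Aldoc is the gene whose level differed most in BAT, and Pkm the gene whose level differed most in gWAT. Pgk1 carries ACGTG at 2 places, and Tpi1 has neither motif. Each printed window runs 5′ to 3′ on the strand of its gene, and capitals mark ACGTG or GCGTG, or their complements CACGT and CACGC.
Aldoc, chr11:78322823-78323122, plus strand: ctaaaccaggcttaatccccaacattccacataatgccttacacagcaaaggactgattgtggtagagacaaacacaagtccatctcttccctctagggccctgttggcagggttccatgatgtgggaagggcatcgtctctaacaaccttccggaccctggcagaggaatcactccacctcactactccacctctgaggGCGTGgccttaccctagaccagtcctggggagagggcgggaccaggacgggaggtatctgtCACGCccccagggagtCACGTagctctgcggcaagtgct
Tpi1, chr6:124814109-124814408, minus strand: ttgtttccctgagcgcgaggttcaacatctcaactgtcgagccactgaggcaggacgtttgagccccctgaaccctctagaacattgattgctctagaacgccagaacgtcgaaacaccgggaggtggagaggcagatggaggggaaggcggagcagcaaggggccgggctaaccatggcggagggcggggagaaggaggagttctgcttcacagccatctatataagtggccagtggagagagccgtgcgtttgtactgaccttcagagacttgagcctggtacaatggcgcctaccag
Pgk1, chrX:106186850-106187149, plus strand: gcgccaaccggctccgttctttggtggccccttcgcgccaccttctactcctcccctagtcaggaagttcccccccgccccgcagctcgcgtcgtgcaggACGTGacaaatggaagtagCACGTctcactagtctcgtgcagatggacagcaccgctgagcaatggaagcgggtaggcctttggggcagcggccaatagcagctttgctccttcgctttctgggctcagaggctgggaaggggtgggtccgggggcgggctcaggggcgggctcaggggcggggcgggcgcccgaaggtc
Pkm, chr9:59656977-59657276, plus strand: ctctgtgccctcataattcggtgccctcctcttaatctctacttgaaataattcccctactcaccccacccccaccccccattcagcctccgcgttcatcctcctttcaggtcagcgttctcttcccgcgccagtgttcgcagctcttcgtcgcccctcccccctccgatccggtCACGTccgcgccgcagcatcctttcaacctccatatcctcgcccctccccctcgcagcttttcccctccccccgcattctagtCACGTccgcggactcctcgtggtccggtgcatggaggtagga
The printed Aldoc window holds ACGTG once and GCGTG at 2 places, and the printed Pkm window holds ACGTG at 2 places. The other Pkm window, the Eno2 window and a window of Aldoa have neither motif, as in Tpi1. Whether the motifs go with the levels of the genes was not tested. The full E-box CACGTG, which contains ACGTG, was in none of the 15 windows, against 7.15% of all windows. The GC box core GGGCGG was in 8 of the 15 windows, in 6 genes, against 35.7% of all windows, with 5 copies in the Pgk1 window. The overlapping windows of Aldoa and of Eno1 share their copies. TATAAA was in 1 window, that of Eno2, against 13.6%, and TGATGCAA, a core of amino acid response elements, was in none, against 0.895%. The windows' median GC content was 57.3%, against 52.7% over all windows. These matches describe the letters in the windows and nothing about binding.

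The first question was how the 9 genes differed between depots in control mice. BAT expressed most of them more highly than gWAT did, with Pkm 8.89-fold, Eno1 6.53-fold, Pgk1 5.95-fold, Gapdh 4.56-fold, Aldoa 2.94-fold, Tpi1 1.90-fold and Eno3 1.60-fold higher in BAT. Eno2, the neuronal enolase, was 2.77-fold lower in BAT, and the difference of Aldoc was not past the threshold (0.68, adjusted p = 0.388), except without gWAT control replicate 1 (1.30, adjusted p = 0.0475). In all, 7 of the 9 genes were higher and 1 was lower at an adjusted p under 0.05 in limma, in a comparison in which 64.7% of all genes tested passed, 35.4% higher and 29.3% lower. The groups did not overlap for 7 of the 9, all higher in BAT, whereas Eno2 and Aldoc overlapped, beside 60.8% of all genes, 33.6% higher and 27.2% lower. The median log2 difference was 1.56 over the 9 genes and 0.10 over all genes tested. Pgam1 itself stood 2.58 higher in BAT on the log2 scale.

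The size of these differences depended on the scaling. Under quantile normalization Gapdh differed by 1.08 in place of 2.19 and Aldoa by 0.65 in place of 1.56, both still past the threshold. Tpi1 lost its call under quantile normalization (0.25, limma adjusted p = 0.322), under normexp with quantile normalization (0.39, limma adjusted p = 0.112) and without scaling (0.23, limma adjusted p = 0.295). Eno3 lost it under spike-in scaling (0.45, limma adjusted p = 0.0971), under normexp with quantile normalization (0.44, limma adjusted p = 0.0543), with all 16 arrays in 1 fit (limma adjusted p = 0.0749) and without scaling (-0.012, limma adjusted p = 0.966). Eno2 lost it under scaling by Actb and Rplp0 (-1.14, limma adjusted p = 0.0569).

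Pkm showed the largest of these differences. Its level was 8.45, 8.18, 8.58 and 8.35 on the 4 BAT control arrays and 5.05, 4.64, 5.68 and 5.57 on the 4 gWAT control arrays. Every BAT array lay above every gWAT array, and the log2 difference was 3.15 (standard error 0.23, limma adjusted p = 8.46e-06). A second, dimmer Pkm probe differed by 3.15 as well. For Eno1, the ubiquitous enolase, the difference was 2.71 (standard error 0.20, limma adjusted p = 8.14e-06), and it was 2.93 at its second probe. Pgk1 differed by 2.57 (standard error 0.18, limma adjusted p = 7.33e-06), and the 6 Gapdh probes differed by 1.80 to 2.31, each without overlap between the depots.

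The isoforms of enolase were therefore distributed unequally between the depots. Eno2 was at -1.82, -2.99, -3.47 and -3.11 in BAT controls, where 3 of the 4 arrays had it well above background, and at -0.45, -1.33, -1.83 and -1.90 in gWAT controls. The groups overlapped by 1 array, BAT control replicate 1, and the log2 difference was -1.47 (standard error 0.42, limma adjusted p = 0.0136). Within each array, the difference between the levels of Eno2 and Eno1 changed by -4.18 from gWAT to BAT, and that between Eno3 and Eno1 changed by -2.02, neither with any overlap between the depots. The nerve markers, of which 7 were checked, had summed levels of 9.76 to 11.7 in BAT and 4.87 to 13.5 in gWAT controls, and their part in the Eno2 difference was not tested. On slide 2 alone, where the single BAT control was replicate 4, Aldoa, Gapdh, Pgk1, Eno1 and Pkm remained past the threshold, whereas Tpi1 (0.88, adjusted p = 0.107), Eno2 (-1.91, adjusted p = 0.0715) and Eno3 (0.65, adjusted p = 0.144) did not, all in limma with the slide as a block, a fit in which the lone control is assumed to vary like the other arrays.

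**Figure D1:**
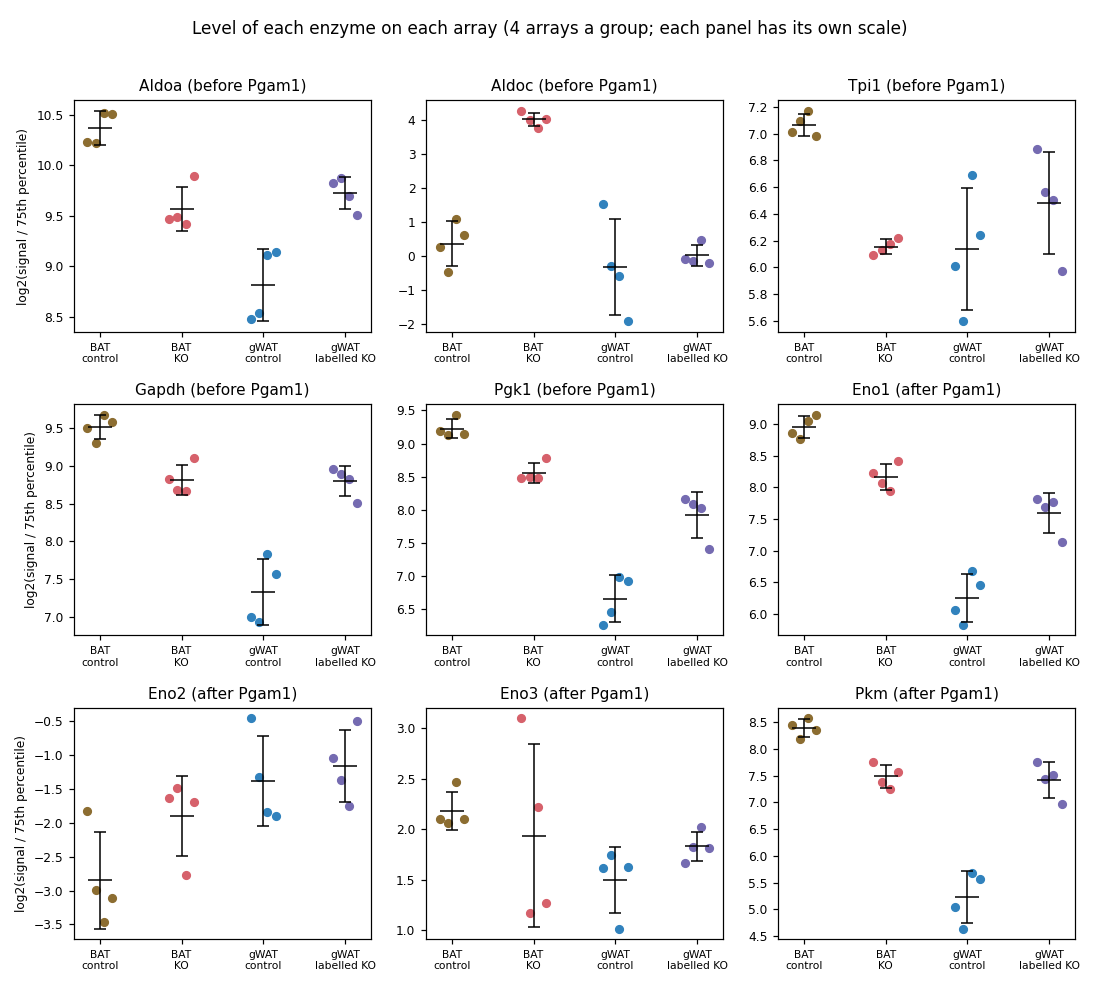
Levels of the 9 enzymes on the 16 arrays, as log2 of signal over the array's 75th percentile, with 1 point an array in replicate order from left to right, and the mean and SD (n = 4) in black. In Aldoa, Gapdh, Pgk1, Eno1 and Pkm the BAT controls are highest, the gWAT controls lowest and the KO-labelled arrays of both tissues lie between them, whereas Aldoc is high in BAT KO arrays alone.

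The second question was how loss of Pgam1 in adipocytes changed these enzymes in BAT. Aldoc, the brain-type aldolase, was 12.6-fold higher in BAT of Adipo-Pgam1 KO mice than in controls. Relative to the 75th percentile, 6 of the other enzymes were lower, by 1.59-fold to 1.88-fold: Aldoa, Tpi1, Gapdh and Pgk1 above the deleted step, and Eno1 and Pkm below it. Eno2 (0.95, adjusted p = 0.0640) and Eno3 (-0.25, adjusted p = 0.609) did not pass the threshold in limma. Thus 7 of the 9 genes passed, 1 higher and 6 lower, beside 61.5% of all genes tested, 27.5% higher and 34% lower. The same 7 genes were those whose genotypes did not overlap, beside 57.1% of all genes, 25.2% higher and 32% lower. The median log2 difference was -0.70 over the 9 genes and -0.08 over all genes.

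Aldoc was at 0.24, -0.49, 1.08 and 0.59 on the control arrays and at 4.25, 3.99, 3.76 and 4.02 on the KO arrays. The lowest KO array lay far above the highest control array. The log2 difference was 3.65 (standard error 0.30, limma adjusted p = 2.45e-05), and the second Aldoc probe, also without overlap, differed by 3.32. Aldoc stayed past the threshold in every alternative run, with differences between 3.06 under scaling by Actb and Rplp0 and 4.59 without any scaling. On each array the level of Aldoc was set against that of Aldoa, the widely expressed isoform. This within-array difference ran from -10.71 to -9.44 in controls and from -5.87 to -5.21 in KO mice, a change of 4.45 without overlap, and since it compares 2 probes it shows only that they changed unequally.

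Tpi1, triosephosphate isomerase, showed the most even fall. It was at 7.01, 7.09, 7.17 and 6.98 in BAT controls and at 6.09, 6.13, 6.17 and 6.22 in KO mice. The arrays of each genotype lay close together and the genotypes did not overlap, with a log2 difference of -0.91 (standard error 0.09, limma adjusted p = 4.85e-05). Its other 2 probes gave -0.88 and -0.95. Tpi1 also kept its call under every scaling, with -0.57 under quantile normalization and -0.37 under spike-in scaling, and lost it only when the arrays were not scaled at all (0.03, adjusted p = 0.822). On slide 2 alone, where BAT control replicate 4 was the only control, the log2 difference was -0.83 for Tpi1, 3.41 for Aldoc and -0.99 to -0.59 for the other 5 enzymes that passed, and this lone control is assumed to vary like the other arrays in any test on that slide.

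The falls of the other 5 enzymes depended on how the arrays were scaled. Aldoa was at 10.23, 10.22, 10.52 and 10.51 in controls and at 9.46, 9.49, 9.42 and 9.89 in KO mice. The genotypes did not overlap, and the log2 difference was -0.80 (standard error 0.14, limma adjusted p = 0.00105). Under quantile normalization, however, the difference was 0.16, and it was 0.29 for Gapdh and 0.10 for Pgk1, in place of -0.70 and -0.66. The reversed difference of Gapdh passed the threshold, as higher in KO mice (limma adjusted p = 0.0310), while those of Aldoa and Pgk1 did not. Eno1 changed from -0.79 to -0.14 and Pkm from -0.90 to -0.36 under that normalization, and neither passed. Under spike-in scaling the 5 differences lay between -0.36 and -0.12, and none of the 5 passed. Without scaling, the raw signal of these 5 genes was higher in KO mice by 0.04 to 0.28 on the log2 scale, while the median over all genes was higher by 0.86 and that of Pgam1 fell by 0.80. Relative to the median of all genes, the median of the 9 enzymes was -0.62 in every setting that scales an array by 1 factor and keeps the scanner's background-subtracted signal. Such a factor shifts all genes of an array alike, so these settings could not differ here and count as 1 value. The same relative median was 0.08 under quantile normalization and 0.18 under normexp background correction with quantile normalization.

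**Figure D2:**
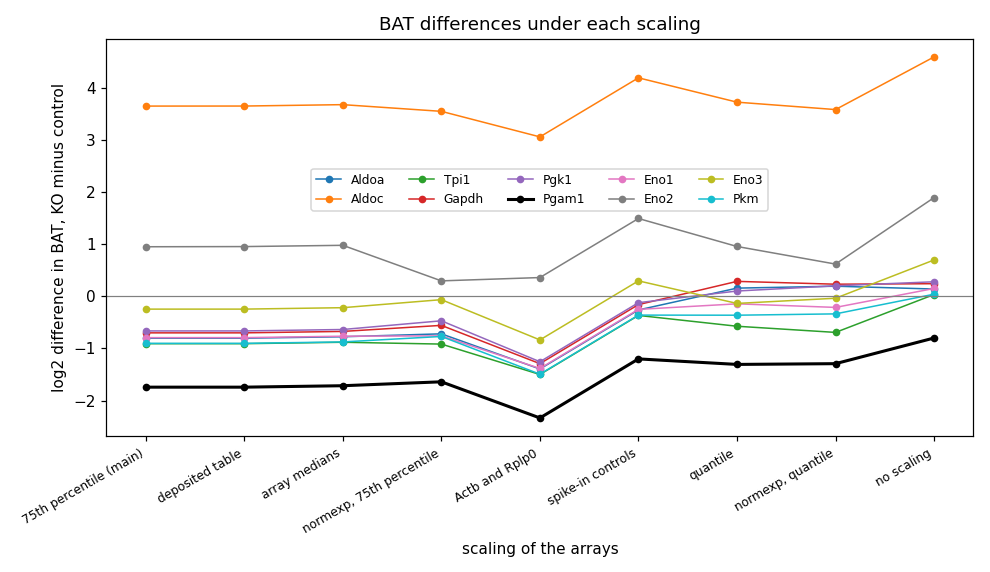
Log2 difference between KO and control BAT for the 9 enzymes and Pgam1 (black) under 9 scalings of the arrays, with lines joining the values of a gene. Aldoc is above 3 and Pgam1 below 0 throughout, whereas Aldoa, Gapdh and Pgk1 lie below 0 under the first 6 scalings and above 0 under the last 3.

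For Gapdh, Eno1 and Pkm, the brightest probe gave the largest fall in BAT. The brightest Gapdh probe differed by -0.70 without overlap, but its other 5 probes differed by -0.46 to -0.18 and their genotypes overlapped. The second probe of Eno1 differed by -0.36 and that of Pkm by -0.34, again with overlap. With the mean of all probes that passed the filter, Gapdh lost its call in BAT (-0.36, limma adjusted p = 0.0818). Taking the dimmest probe of each gene in place of the brightest, 4 of the 9 genes passed the threshold, 1 higher (Aldoc) and 3 lower. The genes that lost their call were Gapdh, Eno1 and Pkm, whereas Aldoa and Pgk1 have a single probe. The highest signal of Aldoa reached 84.6% of the scanner's saturation value in BAT controls and 82.7% in BAT KO mice, against 45.6% in gWAT controls and 85.1% in the KO-labelled gWAT arrays. For Gapdh these shares were 44.5% and 53.1% in BAT, and the part of signal brightness in the probe differences was not tested. Markers of other cell types moved in the same arrays: the 9 macrophage markers summed to 28.7 to 40.3 in BAT controls and 92.6 to 136 in KO mice, and the 6 adipocyte markers to 2283 to 2498 and 751 to 1037. Their part in the enzyme differences was not tested.

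**Figure D3:**
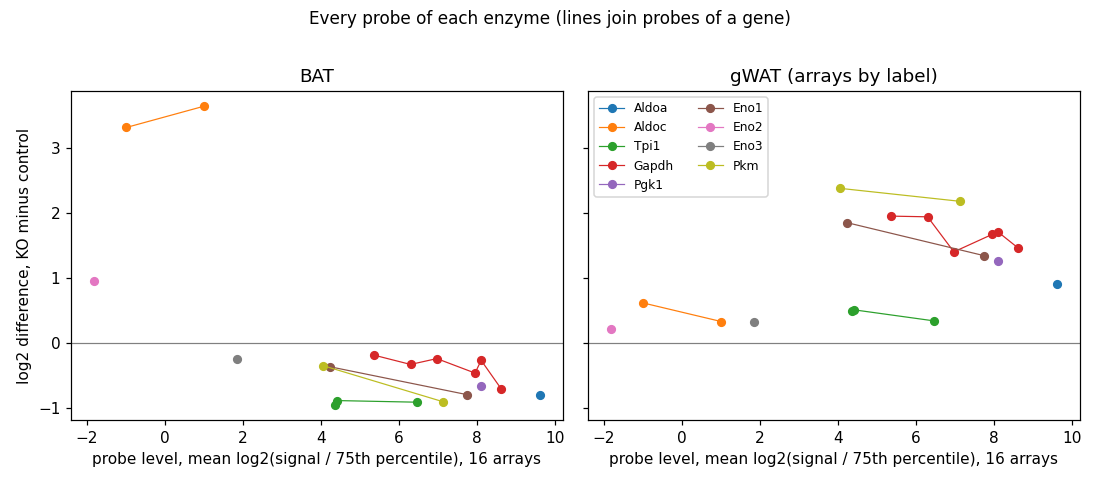
Log2 difference between KO and control for all 19 probes of the 9 enzymes in BAT (left) and gWAT (right), against the probe's mean level over the 16 arrays, with lines joining probes of a gene. In BAT the brightest probes of Gapdh, Eno1 and Pkm lie lower than their dimmer ones, while the Tpi1 probes lie together between -0.95 and -0.88. In gWAT every probe lies above 0.

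Eno3 and Eno2 varied most among the KO arrays. Eno3, the muscle enolase, was at 2.10, 2.06, 2.46 and 2.10 in BAT controls and at 3.10, 1.17, 2.21 and 1.27 in BAT KO mice. The KO arrays lay on both sides of the controls. The 14 skeletal muscle genes checked summed to 193, 8.41, 37.0 and 12.1 on the same 4 KO arrays, in the same order as Eno3, and to 41.2 to 49.7 on the control arrays. In the controls 4 of these muscle genes were not well above background on any array, and 7 were on all of them. Of the 7 tested in BAT, 3 passed as higher in KO mice and 1 as lower, beside 27.5% and 34% of all genes. The sum therefore does not give the direction of each muscle gene. Nor was the order shared in gWAT controls, where replicate 3 had the lowest Eno3 (1.02) but a muscle sum of 43.9, in a range of 17.7 to 44.3. Over the 16 arrays, the genes whose level followed that of Eno3 most closely were Atp2a1 (Pearson r = 0.78), the calcium pump of fast muscle, Ppcdc (r = 0.75) and Myom1 (r = 0.73), a sarcomere protein. The part of muscle RNA in the Eno3 values was not tested. Eno2 was at -1.64, -1.49, -2.78 and -1.69 in BAT KO mice, overlapping the controls. It passed the threshold in limma without BAT control replicate 1 (1.29, adjusted p = 0.00849) or without BAT KO replicate 3 (1.24, adjusted p = 0.0187). It also passed, as higher in KO mice, under spike-in scaling (1.49, limma adjusted p = 0.00895), under normexp with quantile normalization (0.62, limma adjusted p = 0.0357) and without scaling (1.89, limma adjusted p = 0.00161).

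**Figure D4:**
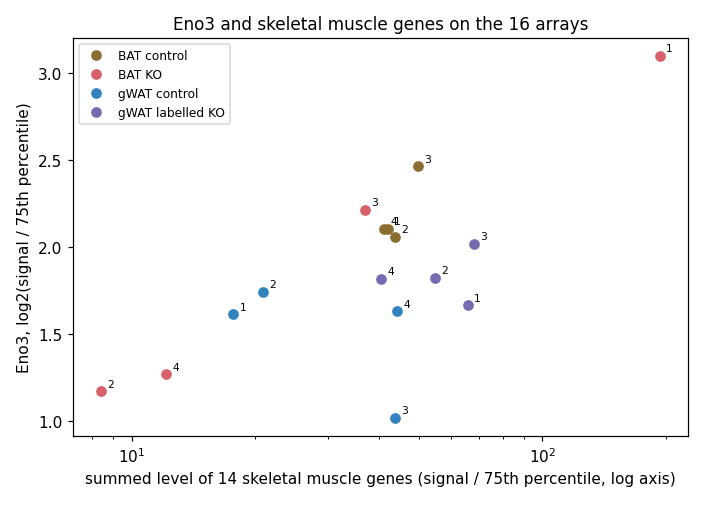
Level of Eno3 on each of the 16 arrays (log2 of signal over the 75th percentile) against the summed level of 14 skeletal muscle genes (signal over the 75th percentile, log axis), with replicate numbers beside the points. The 4 BAT KO arrays spread from 8.41 to 193 on the muscle axis and from 1.17 to 3.10 in Eno3, wider than any other group.

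In gWAT, all 9 enzymes had a positive difference in the arrays labelled Adipo-Pgam1 KO, and 5 of them were higher at an adjusted p under 0.05. These were Pkm (4.55-fold), Gapdh (2.76-fold), Eno1 (2.55-fold), Pgk1 (2.40-fold) and Aldoa (1.88-fold), which lie on both sides of the deleted step. No enzyme was lower. The share of all genes tested that passed was 17.8%, with 9.99% higher and 7.85% lower. The groups did not overlap for the same 5 enzymes, beside 24.2% of all genes, 13.4% higher and 10.8% lower. The median log2 difference was 0.91 over the 9 enzymes and 0.05 over all genes. Aldoc, Tpi1, Eno2 and Eno3 did not pass, with log2 differences of 0.33, 0.34, 0.21 and 0.33 and limma adjusted p from 0.225 to 0.739.

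Pkm, the last enzyme of the pathway, was at 5.05, 4.64, 5.68 and 5.57 in gWAT controls and at 7.77, 7.43, 7.52 and 6.98 in the arrays labelled Adipo-Pgam1 KO. The lowest KO-labelled array lay above the highest control array. The log2 difference was 2.18 (standard error 0.26, limma adjusted p = 0.00266), and it was 2.39 at the second probe. Gapdh was at 7.0, 6.93, 7.83 and 7.57 in controls and at 8.96, 8.89, 8.83 and 8.51 in the KO-labelled arrays, again without overlap. The log2 difference was 1.47 (standard error 0.22, limma adjusted p = 0.00565), and its other 5 probes were higher by 1.41 to 1.96, also without overlap.

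Pgk1 was at 6.26, 6.45, 6.98 and 6.93 in gWAT controls and at 8.16, 8.09, 8.03 and 7.40 in the KO-labelled arrays. Eno1 was at 6.06, 5.82, 6.67 and 6.46 in controls and at 7.82, 7.68, 7.77 and 7.13 in the KO-labelled arrays. Neither gene had any overlap between the groups, and the log2 differences were 1.27 (standard error 0.23, limma adjusted p = 0.0105) for Pgk1 and 1.35 (standard error 0.23, limma adjusted p = 0.00832) for Eno1. The 3 probes of Eno1b, a near-identical copy of Eno1, differed by 1.34, 1.52 and 1.91 in gWAT and by -0.83, -0.87 and -0.51 in BAT. A probe can bind RNA of a near-identical copy, so the separate levels of Eno1 and Eno1b are uncertain. Aldoa was at 8.47, 8.53, 9.11 and 9.14 in controls and at 9.82, 9.87, 9.70 and 9.51 in the KO-labelled arrays, a log2 difference of 0.91 (standard error 0.19, limma adjusted p = 0.0163).

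Tpi1 stood apart from its neighbours in the pathway here. It was at 6.01, 5.60, 6.69 and 6.25 in gWAT controls and at 6.89, 6.56, 6.50 and 5.97 in the KO-labelled arrays. The groups overlapped at all 3 of its probes, and the 95% interval of the log2 difference ran from -0.26 to 0.94. Aldoc was at 1.52, -0.31, -0.58 and -1.93 in gWAT controls, the widest spread of any of the 9 enzymes in any group, and at -0.08, -0.16, 0.47 and -0.20 in the KO-labelled arrays. Its difference of 0.33 had a 95% interval from -1.05 to 1.72, which includes 0.

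**Figure D5:**
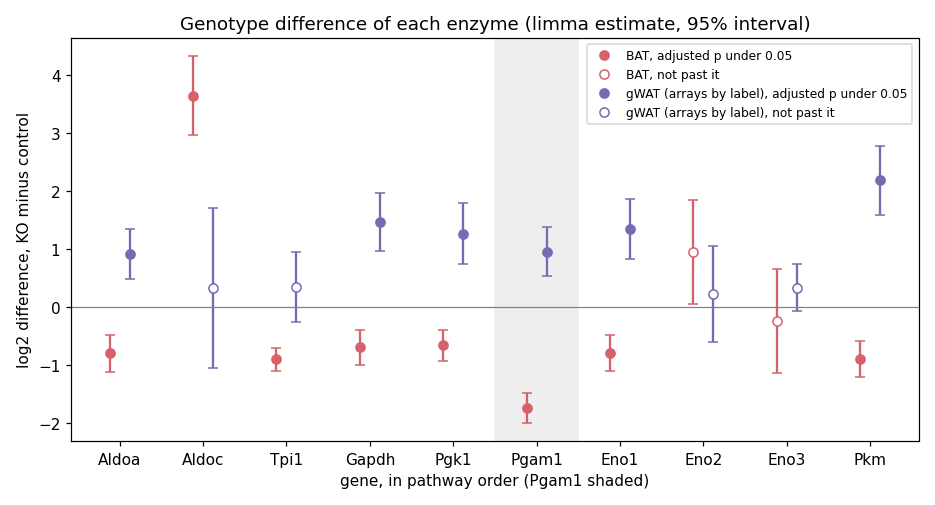
Log2 difference between KO and control for the 9 enzymes in pathway order and for Pgam1 (shaded), with 95% intervals from limma, in BAT (red) and gWAT (purple, arrays by label). Filled points passed an adjusted p of 0.05: in gWAT these are Aldoa, Gapdh, Pgk1, Pgam1, Eno1 and Pkm, all above 0, and in BAT the same genes and Tpi1 lie below 0 while Aldoc lies at 3.65.

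Slide and label were partly confounded in gWAT. On slide 3, which held all 4 KO-labelled arrays and control replicate 4, the log2 differences were 1.85 for Pkm, 1.23 for Gapdh, 1.15 for Eno1, 0.99 for Pgk1 and 0.59 for Aldoa. All kept their sign, but with the slide as a block, where the lone control is assumed to vary like the other arrays, none of the 9 enzymes passed the threshold in limma (adjusted p from 0.0829 to 0.327 for these 5), when 184 of all genes did. On the same slide Aldoc differed by 1.94, against 0.33 over all gWAT arrays, and its control there, replicate 4, was the lowest for Aldoc (-1.93). Tpi1, Eno2 and Eno3 differed by 0.23, 0.73 and 0.20 on that slide. Leaving out any 1 gWAT array kept the number of enzymes past the threshold at 5. Of the 7 brown adipocyte markers, 5 were tested in gWAT. Of these, 4 passed as higher, beside 9.99% of all genes, and 1 differed by -0.52, so a sum does not give the direction of each marker. The 7 summed to 12.6 to 23.4 in gWAT controls and 76.0 to 198 in the KO-labelled arrays. In the same groups the 9 macrophage markers summed to 71.0 to 99.3 and 71.0 to 187, and the 6 adipocyte markers to 1713 to 2758 and 1615 to 2124. Their part in the enzyme differences was not tested.

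The change of these enzymes differed between the depots. The interaction of genotype and depot over all 16 arrays passed the threshold for 7 of the 9 enzymes, where 48.3% of all genes tested passed, 27.4% with a more positive change in gWAT and 21% with a more negative one. The change was more positive in gWAT for Pkm (3.09), Gapdh (2.17), Eno1 (2.14), Pgk1 (1.93), Aldoa (1.72) and Tpi1 (1.25), all as log2 differences of changes. Under quantile normalization these were smaller, at 2.45 for Pkm, 1.01 for Gapdh, 1.28 for Eno1, 0.88 for Pgk1 and 0.71 for Aldoa, each still past the threshold. It was more negative in gWAT for Aldoc (-3.32, standard error 0.74, limma adjusted p = 0.00206). Eno2 (-0.74, adjusted p = 0.312) and Eno3 (0.57, adjusted p = 0.321) did not pass, although Eno3 did without BAT KO replicate 1 (0.96, adjusted p = 0.0259). Among the alternatives, Tpi1 lost its call under quantile normalization (0.65, adjusted p = 0.0520), without scaling (0.41, adjusted p = 0.198) and with the slide as a block (1.06, adjusted p = 0.134), and Aldoc lost it with the slide as a block (-1.48, adjusted p = 0.272).

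Seen by depot, the same arrays showed a much smaller gap between BAT and gWAT in the KO-labelled arrays than in controls. The log2 difference of BAT over gWAT was 0.06 for Pkm, 0.02 for Gapdh, -0.16 for Aldoa, -0.33 for Tpi1 and 0.11 for Eno3 in the KO-labelled arrays, none of them past the threshold, against 3.15, 2.19, 1.56, 0.93 and 0.68 in controls. Pgk1 (0.64, limma adjusted p = 0.0185) and Eno1 (0.57, limma adjusted p = 0.0300) were higher in BAT at this scaling, and Aldoc was 16.0-fold higher in BAT, with a log2 difference of 4.0 (standard error 0.18, limma adjusted p = 2.47e-06). Eno2 differed by -0.73 (adjusted p = 0.107). Thus 3 of the 9 enzymes passed, all higher in BAT, beside 46.1% of all genes tested, 23.4% higher and 22.7% lower. The depots did not overlap for the same 3, beside 43.1% of all genes, 21.9% higher and 21.2% lower. With arrays centred on their medians, neither Pgk1 (0.59, adjusted p = 0.0511) nor Eno1 (0.51, adjusted p = 0.0806) passed in limma. Eno1 also lost its call under spike-in scaling (0.43, adjusted p = 0.0529), under scaling by Actb and Rplp0 (0.37, adjusted p = 0.113), without a filter on dim probes (adjusted p = 0.0629) and by the methods' t-test on the same arrays (adjusted p = 0.0557). Tpi1 passed as lower in BAT under quantile normalization (-0.39, adjusted p = 0.0368), under scaling by Actb and Rplp0 (-0.53, adjusted p = 0.0259) and under normexp with quantile normalization (-0.51, adjusted p = 0.0114). Without BAT KO replicate 4, the array given as 14 weeks, Pgk1 (0.57, adjusted p = 0.0513) and Eno1 (0.48, adjusted p = 0.0788) no longer passed. Eno1 also did not pass without BAT KO replicate 1 (adjusted p = 0.0654), BAT KO replicate 2 (0.0544) or gWAT KO replicate 2 (0.0537), and Tpi1 passed without gWAT KO replicate 4 (-0.50, adjusted p = 0.0113). In these 8 arrays the depots lay on different slides, so depot and slide cannot be told apart. For Pkm, the order of the 4 group means was therefore BAT control at 8.39, BAT KO at 7.49, gWAT KO-labelled at 7.42 and gWAT control at 5.24, of which the middle pair did not differ beyond its spread. Aldoa and Gapdh also had the KO-labelled groups as their middle pair, likewise within the spread, with the gWAT arrays first for Aldoa. In Pgk1 and Eno1 the BAT KO arrays came second and the KO-labelled gWAT arrays came next.

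The remaining enzymes had other orders. Tpi1 had a mean level of 7.06 in BAT controls, 6.48 in the KO-labelled gWAT arrays, 6.15 in BAT KO mice and 6.14 in gWAT controls, and the last pair was not tested against each other. Aldoc was at 4.01 in BAT KO mice, 0.36 in BAT controls, 0.01 in the KO-labelled gWAT arrays and -0.33 in gWAT controls, where the last 3 groups overlapped. Eno2 had its higher means in gWAT, at -1.16 in the KO-labelled arrays and -1.38 in controls, and its lower means in BAT, at -1.90 in KO mice and -2.85 in controls. Eno3 was at 2.18 in BAT controls, 1.94 in BAT KO mice, 1.83 in the KO-labelled gWAT arrays and 1.5 in gWAT controls.

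The steps before and after phosphoglycerate mutase were then compared. In BAT, 4 of the 5 enzymes before it were lower and 1 higher, and 2 of the 4 after it were lower, with median log2 differences of -0.70 and -0.52. In gWAT, 3 of 5 before it and 2 of 4 after it were higher, with medians of 0.91 and 0.84. For depot in controls, 4 of 5 before and 3 of 4 after were higher in BAT, and 1 after was lower, with medians of 1.56 and 1.69. These counts are of genes past the threshold, beside 27.5% of all genes tested higher and 34% lower in BAT. The shares higher and lower were 9.99% and 7.85% in gWAT, and 35.4% and 29.3% for depot in controls. The difference between the medians, before minus after, was -0.18 in BAT and 0.07 in gWAT. On single arrays, the median level of the enzymes before minus that of the enzymes after had a within-group SD of 0.42 in BAT and 0.25 in gWAT. This SD describes levels on single arrays and not changes, so it is no test of these differences.

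Among the arrays of a group, replicate 4 of the KO mice, given as 14 weeks, lay at an end for most of the enzymes. In BAT it was the highest of the 4 KO arrays for 5 of the 9 enzymes and also for Pgam1. In gWAT it was the lowest of the 4 KO-labelled arrays for 7 of the 9, again together with Pgam1. The same arrays stood at an end for the marker lists: in BAT, replicate 4 had the highest summed brown adipocyte (1875) and adipocyte (1037) levels and the lowest macrophage level (92.6) of the KO arrays, and in gWAT it had the lowest brown adipocyte (76.0) and adipocyte (1615) levels and the highest macrophage level (187). Their part in these ranks was not tested. With 1 array of that age in each tissue, age and array cannot be told apart.

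Across the 16 arrays, which share the group differences described above, most of the enzymes had closely similar patterns. Pearson's r was 0.99 between Pkm and Gapdh and between Pgk1 and Eno1, and 0.97 between Aldoa and Gapdh. Tpi1 followed them less closely (r = 0.81 with Aldoa, 0.73 with Gapdh and 0.67 with Pgk1), and Aldoc had r = 0.02 with Aldoa. Over the 12359 genes well above background on all arrays, the pattern most like that of Aldoa was Gm5523 (r = 0.99), followed by Mpc1 (r = 0.98), a subunit of the mitochondrial pyruvate carrier, and Get3 (r = 0.98). For Pgk1 it was Cycs (r = 0.99), cytochrome c, then 1700071K01Rik (r = 0.99) and Eno1. For Gapdh the 3 most alike were Gm6498, Gm12070 and Gm5069 (r = 0.995, 0.994 and 0.993), listed by RefSeq as transcribed pseudogenes, and whether their probes share sequence with Gapdh was not tested. The same Gm6498 and Gm12070 followed Gapdh itself as the most alike for Pkm, and Eno1b, Pgk1 and Cycs were the most alike for Eno1. The patterns close to that of Tpi1 included those of Smpd1 (r = 0.94) and Lamtor4 (r = 0.94), and Aldoc was most like Neurl1a (r = 0.94), Vmn2r3 (r = 0.93) and Snhg15 (r = 0.92). Eno2 was not above background on every array and was not compared.

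Of 17 other genes of glycolysis, including the upper steps, Pgam1 and lactate dehydrogenase, 11 were tested in BAT, with 3 higher and 5 lower in KO mice, and 13 in gWAT, with 6 higher and none lower. Of all genes tested, 27.5% were higher and 34% lower in BAT, and 9.99% were higher and 7.85% lower in gWAT. In BAT the largest differences were those of Hk3 (3.18), a hexokinase known from myeloid cells, Pgam1 (-1.74) and Pfkm (-1.71), the muscle-type phosphofructokinase. In gWAT they were those of Pfkl (1.89), Gpi1 (1.69) and Pfkp (1.40). Between depots in controls, Pfkl and Ldhb, the heart-type lactate dehydrogenase subunit, were higher in BAT by 3.25 and 3.50.

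The 10 enzymes that branch off between aldolase and pyruvate kinase, to serine, glycerol phosphate and gluconeogenesis, were all tested. In BAT 3 were higher and 5 lower in KO mice, and in gWAT 4 were higher and none lower, beside the same shares of all genes. Psat1 and Phgdh, which draw 3-phosphoglycerate into serine synthesis, were higher in BAT of KO mice by 4.89 (standard error 0.17, limma adjusted p = 8.94e-07) and 3.42 (standard error 0.28, limma adjusted p = 2.46e-05). Pck1, which makes phosphoenolpyruvate for glyceroneogenesis, changed by -2.66 in BAT. In gWAT the largest differences were those of Gpd2 (2.04), Psph (0.99) and Gpd1 (0.91). Psat1 and Phgdh were also the genes of this list that differed most between depots in controls, with log2 differences of -5.98 and -5.87 in BAT over gWAT.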

How the data were processed

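RNA from BAT and gWAT was labelled with Cy3 and hybridized to 1-colour Agilent arrays of 62976 spots. The authors deposited scanner files from Agilent Feature Extraction 10.7.1.1 (per the submitters' processing notes), which hold a background-subtracted, processed signal intensity for each spot, and a table of normalized signal values that equals that intensity over each array's 75th percentile to within a median of 0.01 on the log2 scale. The study's methods name GeneSpring, fold changes and t-tests.

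Here the processed intensity was divided by its array's 75th percentile, taken over probes that are not controls, and put on the log2 scale. Spots flagged as outliers were dropped, and spots of a probe were averaged. Array accessions were matched to RefSeq symbols for 91.94% of the 35886 probes that carry one, and 23611 probes had no symbol. A gene was its brightest probe over the 16 arrays, and was tested where a group compared had it well above background on 4 of 4 arrays. Groups came from the sample labels. Comparisons were fitted with limma 3.58.1 in R 4.3.3 (lmFit, eBayes) on the arrays compared, or on all 16 for the interaction, with Benjamini-Hochberg adjustment over all genes tested and a threshold of 0.05. Precision is limited by the number of arrays. The fits were tested on simulated data. The scanner files hold no mean signal, so the normexp alternative used the median signal and local background, with an offset of 50.

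The enzymes, gene lists, marker lists and rules for naming genes (all 9 enzymes, Pgam1 and the 3 genes of each list with the largest called difference) were chosen with earlier results of these data known. Some genes that these rules select are not reported here. Differences in levels between probes of different genes were not interpreted, and protein sequences were not used here. Alternatives were other scalings, background correction, probe choices, filters, slide and replicate blocks, the methods' t-test and leaving out each array.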

Additional observations from a re-analysis of the deposited data

Results flagged for a closer look

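The change with genotype differed between BAT and gWAT for 7 of the 9 enzymes and for Pgam1, tested as an interaction in limma, which is the reason to look at them again. Of all genes tested, 48.3% passed the same test, 27.4% with a more positive change in gWAT and 21% with a more negative one. The change in gWAT minus that in BAT was 3.09 for Pkm, 2.17 for Gapdh, 2.14 for Eno1, 1.93 for Pgk1, 1.72 for Aldoa, 1.25 for Tpi1, 2.69 for Pgam1 and -3.32 for Aldoc, on the log2 scale. Under quantile normalization Tpi1 did not pass (0.65, limma adjusted p = 0.0520). Each gWAT change is given by the label of arrays in which Pgam1 was higher than in controls, and in which the 7 brown adipocyte markers summed to 76.0 to 198, against 12.6 to 23.4 in controls. Of the 5 markers tested in gWAT, 4 passed as higher, beside 9.99% of all genes, and 1 differed by -0.52.

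Single arrays stood apart from the other 3 of their group in 5 of the 40 sets of 4 arrays checked, where about 1 in 20 sets is marked by chance (Dixon's test at 95%). Replicate 4 of BAT KO, given as 14 weeks, was the highest of its group for Aldoa, at 9.895, and for Pgk1, at 8.79. Replicate 4 of the gWAT arrays labelled Adipo-Pgam1 KO, also given as 14 weeks, was the lowest for Pgk1, at 7.40. Replicate 3 of BAT KO was the lowest for Eno2, at -2.78, and replicate 3 of the BAT controls was the highest for Eno3, at 2.46. Whether age has a part in the values of replicate 4 was not tested.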

How the results depend on the processing

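Of the 14280 genes tested in BAT, 8777 passed, 3928 of them higher. This count was 8582 (4453 higher) under quantile normalization, 9081 (7238 higher) under spike-in scaling and 10964 (10145 higher) without scaling. Of the 9 enzymes, 7 passed in BAT, 1 higher and 6 lower. Under quantile normalization, spike-in scaling and normexp with quantile normalization 3 did, each 2 higher and 1 lower. Without scaling 2 passed, both higher, and with the dimmest probe 4 did, 1 higher and 3 lower. Beside Aldoc, the higher gene was Gapdh under quantile normalization and Eno2 under spike-in scaling, normexp with quantile normalization and no scaling. In gWAT 5 passed, but 0 with the slide as a fixed block, when for depot in controls 5 passed in place of 8. For depot in KO-labelled arrays, 1 in place of 3 passed with arrays centred on their medians, and 1 to 4 when single arrays were left out. The alternatives without scaling and with the dimmest probe were chosen after seeing the data. Fixed and random slide blocks could not be fitted between depots in the KO-labelled arrays, which lay on 1 slide a depot.

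In BAT, signs turned for Aldoa (0.16 under quantile, 0.19 under normexp with quantile, 0.14 without scaling), Gapdh (0.29, 0.23 and 0.24 in the same order) and Pgk1 (0.10, 0.20 and 0.28). Without scaling they also turned for Tpi1 (0.034), Eno1 (0.15), Pkm (0.041) and Eno3 (0.70), and for Eno3 in spike-in scaling (0.30). The spread of Eno3 over left-out arrays was -0.63 to 0.0099. In gWAT, leaving out arrays moved Aldoc between -0.20 and 0.95 and Eno2 between -0.0076 and 0.52, while spike-in scaling brought Tpi1 (0.79) and Eno3 (0.77) past the threshold. The largest gWAT difference of Aldoc was 1.94, on slide 3 alone. Without scaling, Eno3 was -0.27 in the interaction, Aldoc was -0.011 and Eno3 -0.012 between depots in controls, and Pgam1 was 0.032 between depots in KO-labelled arrays. In that last comparison, Gapdh turned to -0.034 with median centring, -0.11 with spike-in and -0.18 with Actb and Rplp0 scaling. Pkm turned to -0.051 with quantile, -0.067 with spike-in, -0.14 with Actb and Rplp0 and -0.022 with normexp and quantile, and Eno3 to -0.024 with spike-in and -0.092 with Actb and Rplp0. Over left-out arrays these 3 ran from -0.075 to 0.076, -0.085 to 0.18 and -0.28 to 0.36. The cause of these moves was not tested. Eno2 was well above background on 3 of 4 BAT control arrays, which limits its values there.

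The difference of medians before minus after Pgam1 moved with quantile normalization to 0.30 in BAT, -0.13 in the interaction and -0.51 between depots in controls, and with normexp and quantile to 0.33, -0.049 and -0.49, from -0.18, 0.36 and -0.14.

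Over all genes, the count of 2525 past the threshold in gWAT was 184 with the slide block, 1087 with the replicate block, 1134 without a filter, 1384 with median centring, 1618 by the methods' t-test adjusted (4673 unadjusted), 4040 with all 16 arrays in 1 fit and 5086 with spike-in scaling, and 1143 to 3237 when single arrays were left out. The interaction count of 7162 was 3265 with the slide block, and the count of 6664 between depots in KO-labelled arrays was 4372 with spike-in scaling. Of the genes called in BAT, 44.8% were higher in KO mice, and this share was 79.7% with spike-in scaling, 17.7% with Actb and Rplp0 scaling and 92.5% without scaling.

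In no comparison did every pair of arrays with the same replicate number deviate together (correlations from -0.12 to 0.51, the highest between genotypes in gWAT). Nor did every array correlate best with its own number, so the numbers were not taken to pair the arrays. Between depots, however, control replicates 1, 2 and 3 (0.167, 0.0989 and 0.11) and KO-labelled replicates 1 and 3 (0.122 and 0.253) did. Whether the depots share mice is not settled here, and the depot and interaction tests treated arrays as independent. The labels give KO replicate 4 the same age in both depots but name no animal. With the replicate number as a block, Aldoa (adjusted p = 0.0592) and Pgam1 (adjusted p = 0.0514) were lost in gWAT, Eno2 was gained in BAT (0.95, adjusted p = 0.0201), and between depots in KO-labelled arrays Pgk1 (adjusted p = 0.0540) and Eno1 (adjusted p = 0.0755) were lost and Eno2 (-0.73, adjusted p = 0.0331) gained.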
